A study of Mus musculus with 2 samples.

Results

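The genes described here are 10 RNA-binding proteins that control alternative splicing in neurons: Ptbp1, Ptbp2, Ptbp3, Rbfox1, Rbfox2, Rbfox3, Nova1, Nova2, Srrm4 and Mbnl2. They were chosen by name, not by their values. All 10 were found among the 43346 mouse genes of both gene tables, and their transcripts were taken from both transcript tables. The RNA came from forebrain of B6NCrl mouse embryos of mixed sex at embryonic day 15.5, with no genetic change or treatment given in the labels. There was 1 group with 2 biological replicates, a pool of 78 embryos (replicate 1) and a separate pool of 62 (replicate 2). Each library was made from 10 ng of total RNA longer than 200 nucleotides with spike-in transcripts. Expected counts, which are estimated reads per gene, summed to 38720511 in replicate 1 and 35103430 in replicate 2. Levels are TPM, relative transcript abundances corrected for length, given for replicate 1 and then replicate 2 or as mean ± SD of the 2 libraries (n = 2). With 2 libraries the smallest p of a two-sided exact sign-flip test is 0.5, so the libraries were not tested, and each difference is given beside their spread.

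Splicing regulators bind short motifs in pre-mRNA and raise or lower the use of nearby exons. PTB proteins bind pyrimidine-rich RNA and mostly repress exons. During neuronal differentiation the microRNA miR-124 lowers Ptbp1, and the paralog Ptbp2 takes over for a period before it too declines in maturing neurons. Rbfox proteins bind GCAUG motifs, and Nova proteins bind clusters of YCAY motifs. Srrm4, also called nSR100, promotes microexons, which are very short exons used in neurons. Mbnl proteins promote adult splicing patterns, with Mbnl2 the best studied of them in brain.

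All 10 genes were expressed at 10 TPM or more in both libraries, and each stood above the median of the 21474 protein-coding genes, which was 4.75 TPM. Ptbp2 was the most abundant at 200.21 and 187.3 TPM, above 96.5% of protein-coding genes. Mbnl2 was the least abundant at 11.41 and 10.99 TPM, 17.3-fold below Ptbp2 and above 60.0% of protein-coding genes. Rbfox2 (98.6 ± 2.18 TPM), Ptbp1 (92.2 ± 6.89) and Rbfox1 (90.0 ± 7.43) followed Ptbp2, then Rbfox3 (44.4 ± 3.41), Srrm4 (25.2 ± 0.997), Nova2 (19.4 ± 0.608), Ptbp3 (15.8 ± 0.00707) and Nova1 (15.3 ± 3.18). Of the 9 neighbouring pairs in this order, 3 overlapped between libraries, namely Rbfox2 with Ptbp1, Ptbp1 with Rbfox1, and Ptbp3 with Nova1. The other neighbours were apart in both libraries. The first place depends on length: by CPM, which scales reads to the library total without length correction, Rbfox2 (399 CPM) and Ptbp2 (394 CPM) were nearly level, and Srrm4 moved up from the sixth place to the fourth (115 CPM). The forebrain holds progenitors, neurons and other cells, and in bulk RNA fewer cells of a type and less RNA per cell cannot be told apart.

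**Figure D1:**
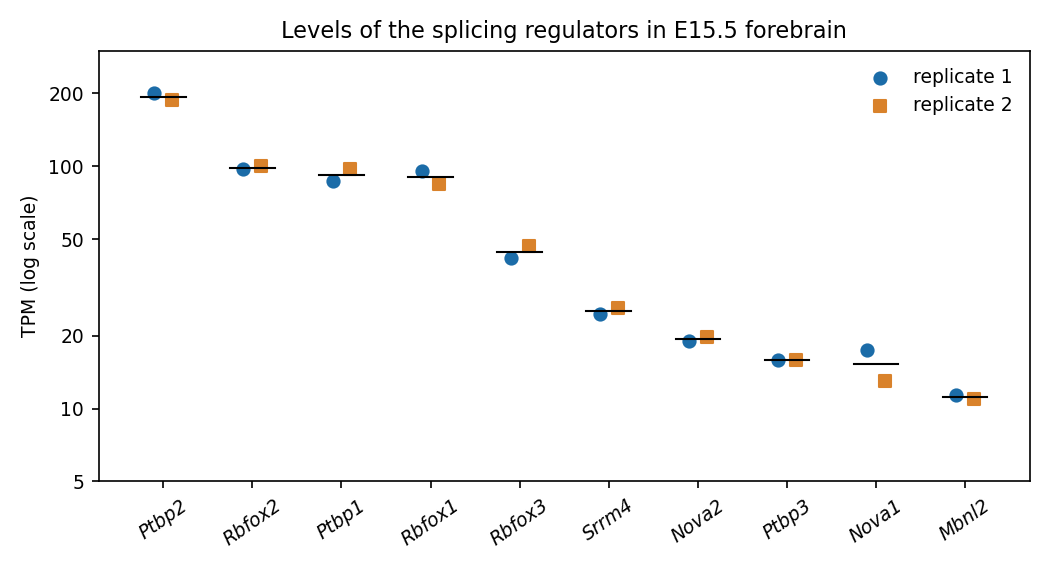
TPM on a log scale for each of the 10 genes, with a circle for replicate 1, a square for replicate 2 and a line at the mean. Ptbp2 stands alone near 200 TPM, the points of Ptbp1 overlap those of Rbfox2 and of Rbfox1, and Nova1 has the widest gap between its points.

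Ptbp1 is the PTB protein of progenitors and most non-neuronal cells (ENSMUSG00000006498.12; mm10, chromosome 10, 79854427 to 79864771, plus strand). It stood at 87.36 and 97.1 TPM on 5320 and 5389 reads. Ptbp2, the neuronal PTB protein (ENSMUSG00000028134.7; chromosome 3, 119718742 to 119784466, minus strand), rested on 15298 and 13150 reads. Ptbp3, known from blood cells (ENSMUSG00000028382.11; chromosome 4, 59471868 to 59549364, minus strand), was at 15.79 and 15.8 TPM on 1453 and 1295 reads. Ptbp2 thus supplied 66.0 and 62.4% of the summed TPM of the family, Ptbp1 28.8 and 32.3%, and Ptbp3 5.21 and 5.26%. The log2 ratio of Ptbp1 over Ptbp3 was 2.46 and 2.61, a mean of 2.54 ± 0.11 or 5.80-fold. That of Ptbp2 over Ptbp1 was 1.20 and 0.95, so the paralogs lay closer together in replicate 2, where Ptbp1 was higher and Ptbp2 lower. Both ratios were larger than the spread between the libraries. Exons of Ptbp1 share 251 of 4740 bases with Plppr3 on the opposite strand, a gene at 339.04 and 334.4 TPM, and no source used here states whether counting used strand, so reads over those bases cannot be assigned with certainty.

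PTB proteins limit their own family through a short exon of 34 bases. Skipping it shifts the reading frame and marks the message for decay, and Ptbp1 protein causes this skipping in both its own RNA and that of Ptbp2. The 3 paralogs each have an exon of 34 bases at this place, the fifth exon from the end. They are printed here to show how alike the regulated exons are. Capitals mark the exon, and the lower-case bases are the 15 bases of the neighbouring exons on each side, read from the GENCODE M21 transcripts on the coding strand.
Ptbp1 (chr10:79862014-79862047, plus strand): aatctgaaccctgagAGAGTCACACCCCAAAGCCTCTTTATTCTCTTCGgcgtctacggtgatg
Ptbp2 (chr3:119724612-119724645, minus strand): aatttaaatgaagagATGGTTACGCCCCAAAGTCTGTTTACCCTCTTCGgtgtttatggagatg
Ptbp3 (chr4:59485339-59485372, minus strand): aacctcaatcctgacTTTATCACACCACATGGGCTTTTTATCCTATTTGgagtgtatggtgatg
Aligned base by base, the exons of Ptbp1 and Ptbp2 were identical at 26 of 34 positions (76.5%). Those of Ptbp1 and Ptbp3 shared 22 and those of Ptbp2 and Ptbp3 shared 21.

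Inclusion of an exon was computed as the TPM of transcript models that hold it over the TPM of those models plus the ones that splice across it. In Ptbp1 the 34-base exon was included at 100% in replicate 1 and 98.2% in replicate 2 of 77.7 and 85.0 TPM. Among the models that skip it, Ptbp1-201, annotated as a target of nonsense-mediated decay, was listed at 0 TPM in replicate 1 and 1.26 in replicate 2. The bounds that the authors deposited for this model reached down to near 0 in both libraries. Decay removes such messages, so this is the share among messages present. For Ptbp2 the exon could not be measured. The tables give Ptbp2 a single transcript, Ptbp2-201, which holds the exon, while GENCODE M21 lists 13, of which 3 skip it and 2 of these are annotated as decay targets. The 200.21 and 187.3 TPM of Ptbp2 therefore do not separate the coding message from skipped forms.

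The main choice within Ptbp1 was an in-frame exon of 78 bases, which lengthens the linker between the second and the third RNA-recognition motif. Its sequence is shown because it sets apart the leading Ptbp1 forms, with capitals for the exon.
Ptbp1 78-base exon (chr10:79860117-79860194, plus strand): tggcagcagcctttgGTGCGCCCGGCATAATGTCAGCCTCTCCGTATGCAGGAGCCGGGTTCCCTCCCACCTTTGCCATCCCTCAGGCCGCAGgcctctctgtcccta
It was included at 43.8 and 37.8% of 77.7 and 85.1 TPM, a mean of 40.8 ± 4.21%. Ptbp1-216, which holds the exon, made up 37.25 and 31.65% of the gene. Ptbp1-202 (32.8 and 30.14%) and Ptbp1-206 (17.2 and 23.04%) lack it. Ptbp1-202 also starts an earlier coding exon 120 bases later than the other main models, and the longer form of that exon held 63.1 and 65.5%. This splice-site difference was picked out after its values were seen. Because Ptbp1-202 carries both differences, these percentages rest partly on the same models. Of 16 Ptbp1 transcripts in the tables, 3 reached 10% in either library and 4 were at 0 in both.

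By TPM, Ptbp3 was spread over more forms. Ptbp3-201 led with 44.96 and 44.12%, and 5 of its 13 transcripts reached 10% in either library. By expected counts, Ptbp3-201 held most of the gene, 1122 of 1453 and 1013 of 1295. Among the 5 are short retained-intron models on few reads. These are Ptbp3-206 (447 bases, 15 and 13 expected counts) and Ptbp3-209 (669 bases, 16 and 23). Ptbp3-202 was at 2.57 TPM in replicate 1 and 0.84 in replicate 2, with deposited bounds of 1.02 to 3.0 and 6.58e-06 to 1.63 that overlap. A separate 34-base exon near the start of Ptbp3, other than the one aligned above, was included at 29.5 and 22.6% of 12.8 and 12.2 TPM. It is printed because Ptbp3-201, which skips it, has its annotated start of translation further downstream.
Ptbp3 early 34-base exon (chr4:59546149-59546182, minus strand): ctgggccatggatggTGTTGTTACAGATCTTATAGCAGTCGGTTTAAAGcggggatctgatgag
Its mean was 26.0 ± 4.85%, and it rests on few reads, with 199 and 60 expected counts for Ptbp3-202. An exon beside it was used in its longer form, with 9 more bases, at 65.0 and 64.2%, a difference also picked out after its values were seen.

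Rbfox2 and Rbfox1 stood close together by TPM, with Rbfox2 higher in both libraries. Rbfox2, the broadly expressed member (ENSMUSG00000033565.12; chromosome 15, 77078990 to 77307004, minus strand), stood at 97.1 and 100.18 TPM. Rbfox1, found in neurons and muscle (ENSMUSG00000008658.11; chromosome 16, 5885355 to 7411526, plus strand), stood at 95.22 and 84.71. The log2 ratio of Rbfox2 over Rbfox1 was 0.03 and 0.24, a mean of 0.13 ± 0.15, so the difference was smaller than the SD of the ratio although its direction was shared. Without length correction the mean was 2.23, because Rbfox2 had 14762 and 13993 reads and Rbfox1 3389 and 2778. The level of Rbfox1 rests on a short model. Rbfox1-202, of 1191 bases, held 85.18 and 85.03% of the gene, and Rbfox1-201 the rest. GENCODE M21 lists 8 Rbfox1 transcripts against the 2 in the tables, and gives Rbfox1-201 3061 bases where the tables have 4084. Whether Rbfox1 in this tissue is nearer to Rbfox2 or well below it thus depends on its true message length, which these tables do not settle.

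Rbfox3 encodes NeuN, the nuclear antigen used to mark postmitotic neurons (ENSMUSG00000025576.13; chromosome 11, 118489762 to 118911597, minus strand). It was at 42.02 and 46.84 TPM on 2384 and 2445 reads, which was 17.9 and 20.2% of the Rbfox sum. The log2 ratio of Rbfox1 over Rbfox3 was 1.18 and 0.85, a mean of 1.02 ± 0.23. Without length correction it was 0.35, in the same direction.

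The transcript models of Rbfox3 had the same lengths in the tables and in GENCODE M21, so its exons could be followed. A 93-base exon encoding part of the RNA-recognition motif, whose loss is known to weaken RNA binding in Rbfox proteins, was included at 99.8 and 99.3% of 41.7 and 46.7 TPM. A 40-base exon outside the coding sequence was included at 83.5 and 80.3%. The largest choice lay near the 3′ end of the coding sequence, where a 40-base exon has a form with 141 more coding bases. The longer form held 34.2 and 36.2% of 41.6 and 46.6 TPM, a mean of 35.2 ± 1.43%, and was picked out after its values were seen. The 93-base exon and the added bases are printed with capitals for the part concerned, because the first was nearly always used and the second in a minority of messages.
Rbfox3 93-base exon (chr11:118502842-118502934, minus strand): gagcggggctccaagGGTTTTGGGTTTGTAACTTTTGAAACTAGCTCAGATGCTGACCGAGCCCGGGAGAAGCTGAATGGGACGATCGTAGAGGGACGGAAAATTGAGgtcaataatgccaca
Rbfox3 141 added bases (chr11:118496391-118496531, minus strand): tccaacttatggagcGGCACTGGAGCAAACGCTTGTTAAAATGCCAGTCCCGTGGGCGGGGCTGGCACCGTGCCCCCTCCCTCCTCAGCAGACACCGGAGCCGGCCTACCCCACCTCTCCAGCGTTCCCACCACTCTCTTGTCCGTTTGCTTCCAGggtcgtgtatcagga
Rbfox3 was divided among 4 main models in both libraries. Rbfox3-203 held 35.86 and 34.17%, Rbfox3-204 27.98 and 28.64%, Rbfox3-201 17.25 and 15.63%, and Rbfox3-205 16.35 and 19.59%. Rbfox3-203 and Rbfox3-204 have the shorter form, and Rbfox3-201 and Rbfox3-205 the longer. The order of the last pair differed between the libraries.

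**Figure D2:**
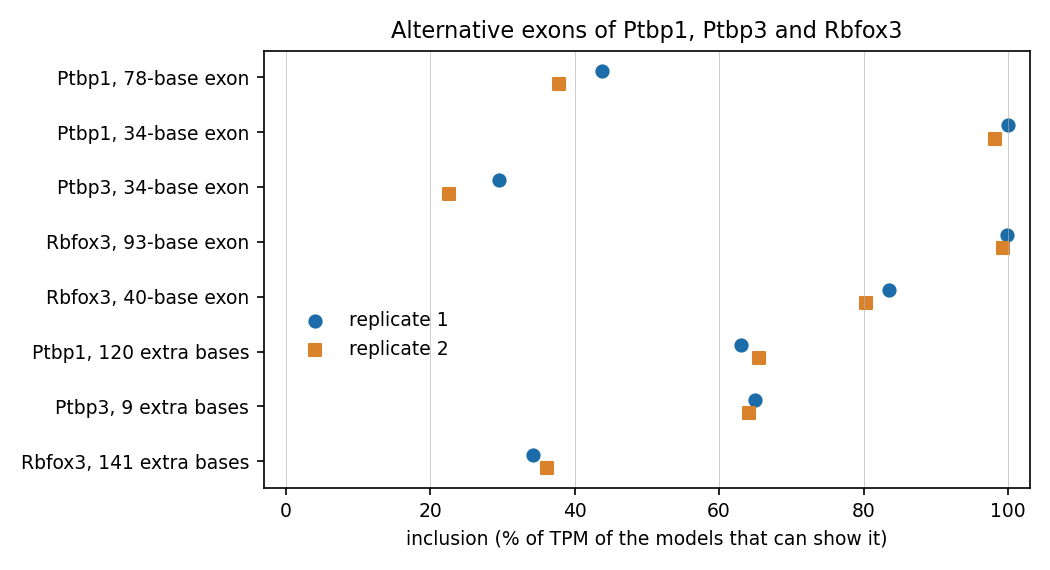
Inclusion in percent, for the 2 libraries, of the cassette exons and longer splice forms of Ptbp1, Ptbp3 and Rbfox3. The 34-base exon of Ptbp1 and the 93-base exon of Rbfox3 lie at or above 98.2%, while the 78-base exon of Ptbp1 and the 141 added bases of Rbfox3 lie between 34.2 and 43.8%.

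Nova1 differed most between the pools among the 10 genes. Nova1 and Nova2 are neuron-specific proteins first known as autoimmune antigens, Nova2 being the main form in neocortex. Nova1 (ENSMUSG00000021047.6; chromosome 12, 46694517 to 46818929, minus strand) was at 17.51 TPM in replicate 1 and 13.01 in replicate 2, on 2828 and 1931 reads. Nova2 (ENSMUSG00000030411.11; chromosome 7, 18925888 to 18965319, plus strand) was at 18.95 and 19.81. The log2 ratio of Nova2 over Nova1 was 0.11 in replicate 1 and 0.60 in replicate 2. Its mean of 0.36 barely exceeded its SD of 0.35, so a higher level of Nova2 is carried mostly by replicate 2. Nova1 has 1 transcript in the tables. Nova2 has 2, of which ENSMUST00000172835 held 58.36 and 62.99% and Nova2-201 the rest. The first is not among the M21 transcripts used for annotation, so it has no type here. Counting only transcripts annotated as coding leaves it out and turns the Nova ratio to -0.98.

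Srrm4 (ENSMUSG00000063919.8; chromosome 5, 116439275 to 116591817, minus strand) was at 24.54 and 25.95 TPM on 4209 and 4090 reads. Srrm4-201 held 97.9 and 97.58% of it. Its paralog Srrm3, which also promotes microexons, was at 46.15 and 50.15 TPM, so the log2 ratio of Srrm4 over Srrm3 was -0.91 and -0.95. The direction reversed to 2.05 without length correction. Srrm3-202, a model of 526 bases, held 65.44 and 69.38% of Srrm3, against 7476 bases for Srrm4-201. By reads, Srrm4 had a mean of 80.5% of the pair, and by TPM 34.4%. Which of them is the more abundant message is therefore not determined by these tables.

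Mbnl2 (ENSMUSG00000022139.12; chromosome 14, 120275669 to 120431697, plus strand) rested on 1186 and 1049 reads. Mbnl1 was higher, at 36.24 and 37.2 TPM, and the log2 ratio of Mbnl2 over Mbnl1 was -1.66 and -1.75, a mean of -1.70 ± 0.06. Without length correction it was -1.13, in the same direction. Mbnl1 thus made up 74.0 and 74.4% of the family's TPM, Mbnl2 23.3 and 22.0%, and Mbnl3, better known from muscle precursors and placenta, 2.68 and 3.68%. Mbnl2-201 held 81.19 and 77.24% of the gene and Mbnl2-202 the rest.

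**Figure D3:**
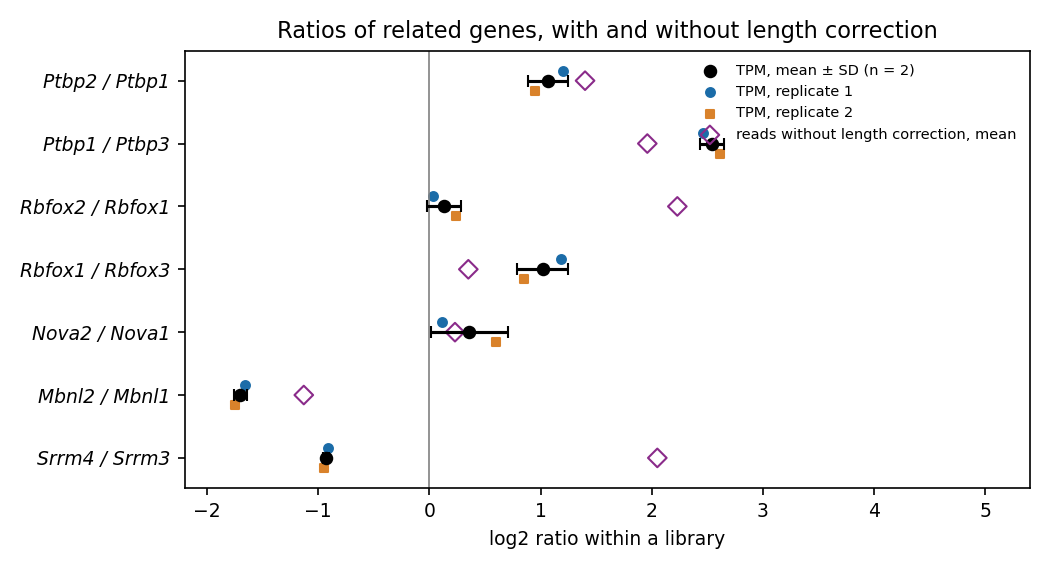
Log2 ratio of each pair of related genes, with black points and bars for mean ± SD of TPM (n = 2), small symbols for the libraries and open diamonds for reads without length correction. The diamonds of Rbfox2 over Rbfox1 (2.23) and Srrm4 over Srrm3 (2.05) lie far from the TPM values, and that of Srrm4 over Srrm3 is on the other side of 0.

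The leading transcript was the same in both libraries for each of the 10 genes. Rbfox1, Rbfox2 and Mbnl2 had 100% of their TPM in transcripts annotated as protein coding, the only type listed for them. Rbfox2 was split between Rbfox2-203 (66.6 and 66.09%) and Rbfox2-202 (27.35 and 27.99%), and M21 lists 15 Rbfox2 transcripts against 4 in the tables. Retained-intron transcripts held 9.05 and 11.1% of the TPM of Ptbp1 and 19.2 and 22.5% of that of Ptbp3. The Ptbp3 share rests on few of its 1453 and 1295 expected counts, in short models. Ptbp3-206 (447 bases) had 15 and 13, and Ptbp3-209 (669 bases) 16 and 23. The deposited bounds of Ptbp3-209 were wide, 0.12 to 2.88 and 0.000363 to 3.81 TPM. Decay targets of Ptbp3 held 0% in replicate 1 and 6.52% in replicate 2, all in Ptbp3-213 at 0 and 1.03 TPM. With them, the share of Ptbp3 outside coding models was 19.2% in replicate 1 and 29.0% in replicate 2. Over protein-coding genes with several transcripts and a mean of 5 TPM or more, 2302 of 7756 (29.7%) had 20% or more outside coding models in both libraries, with a median share of 8.39%. Of the 7 regulators that could be counted, 0 met this, Ptbp3 falling just short in replicate 1, and their median was 0.607%. Ptbp2 and Nova1 have a single transcript and Nova2 a transcript of unknown type, so they were not counted. The number of models listed per gene, between 2 and 16 for those counted, limits what share can be seen. Rbfox1, Rbfox2 and Mbnl2, with coding models alone, could only have a share of 0 and so could not meet the criterion. The count and the median of the counted regulators therefore cannot be set against those of all genes.

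**Figure D4:**
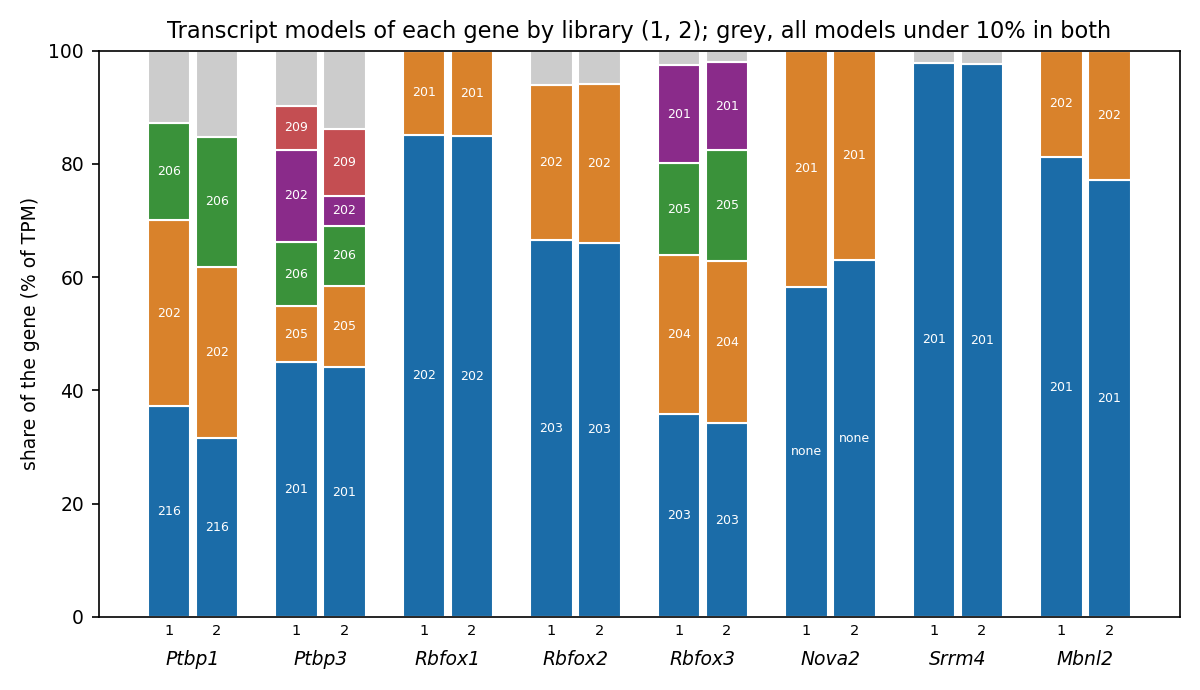
Share of each gene's TPM by transcript model in replicate 1 (left bar) and replicate 2 (right bar), for the 8 genes with several models. Numbers are the M21 transcript suffixes, "none" marks the Nova2 model with no M21 name, and grey holds the models under 10% in both libraries. Ptbp1, Ptbp3 and Rbfox3 are divided among several models, whereas Srrm4-201 fills 97.9 and 97.58% of its gene.

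Between the pools, 888 of 15433 genes at a mean of 1 TPM or more (5.75%) differed by 1.5-fold or more in either direction. None of the 10 regulators did, and their median absolute log2 difference was 0.09 against 0.10 for all genes tested. The regulators were all at 10 TPM or more. Over genes at a mean of 5 TPM or more the share was lower, 165 of 11344 (1.45%), with a median of 0.08. A count of 0 among 10 is near either share, so the regulators cannot be called steadier than other genes. Nova1 came nearest with 1.35-fold, and 9.19% of the genes at a mean of 1 TPM or more differed by more. Of the 10, Ptbp2, Rbfox1, Nova1 and Mbnl2, were higher in replicate 1. Ptbp1, Rbfox2, Rbfox3, Srrm4 and Nova2 were higher in replicate 2, and Ptbp3 was equal to within 0.01 TPM.

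Genes that act with or alongside the 10 regulators were also expressed. All 6 PTB partners reached 1 TPM in both libraries, from Raver2, a PTB co-repressor (4.1 and 3.63 TPM), to Hnrnpk, an abundant nuclear RNA-binding protein (1698.93 and 1676.96). All 14 other neural splicing regulators reached 1 TPM, with Celf2, a CUG-binding splicing factor, highest at 263.86 and 283.45 TPM and Celf6 lowest at 28.35 and 20.22. The median of these 14 was 56.6 TPM, against 34.8 for the 10 genes described here. Among 6 regulators best known from other tissues, 4 reached 1 TPM. Rbm38 was highest at 19.92 and 22.64 TPM, and the epithelial regulator Esrp1 lowest at 0.06 and 0.03. The host genes of miR-124, the microRNA that lowers Ptbp1, were at 106.32 and 117.13 TPM (Mir124a-1hg) and 63.04 and 66.83 TPM (Mir124-2hg), so RNA of these hosts and of Ptbp1 was present in the same tissue pools.

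Inclusion was also computed in genes known to be spliced under these regulators. All 14 target genes reached 1 TPM in both libraries, from Cacna1d (2.3 and 2.44 TPM) to Pkm (902.38 and 945.4). Of 46 exons in the 9 target genes with usable models, 12 had a mean inclusion over the libraries between 5 and 95% on at least 5 TPM. These were picked by their values. Those of Flna, Dab1, Ndrg4 and Tanc2 were not matched to the exons known to be regulated in these genes. Src has a neuronal microexon of 18 bases that PTB proteins repress, and it was included at 55.8 and 55.8% of 30.2 and 28.4 TPM. The equal values are no measure of precision. Src-202, the main model with the exon, had deposited bounds of 13.0 to 19.1 and 11.8 to 17.6 TPM. With posterior mean TPM the mean inclusion was 54.2%. An exon of 77 bases before the coding sequence of Src was included at 94.9 ± 0.153%. Pkm has a pair of mutually exclusive exons of 167 bases, of which PTB proteins repress the upstream one. Pkm-201, with the downstream exon, held 56.27 and 62.2%, and Pkm-202, with the upstream one, 43.73 and 37.8%. The length of Pkm-202 differs between the tables (2432 bases) and M21 (2041), so which exon it holds in the tables is read from M21 and was not checked against the authors' model. In Flna, which encodes filamin A, an exon of 24 bases was included at 39.5 and 33.5%. This value rests on Flna-213, annotated as a decay target, at 19.74 and 18.31 TPM. A coding model, Flna-201, also holds this in-frame exon, at 0 and 0.18 TPM. Holding the exon thus does not by itself mark a model for decay. In Dab1, the adaptor of Reelin signalling and a target of Nova2, an exon of 39 bases was included at 45.8 and 50.1%. Another Dab1 exon, of 270 bases and outside the coding sequence, was included at 55.7 and 53.4%, and the model that holds it is annotated as a decay target and skips the 39-base exon. At Rest, the repressor of neuronal genes whose RNA Srrm4 acts on, the level was 7.05 and 6.93 TPM, and Rest-201 held 89.45 and 91.31%. No internal exon of Rest is skipped by a listed model, so inclusion could not be computed there. The share of Rest-201 is no measure of Srrm4 action.

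Agrn carries the exons through which Nova proteins act on the agrin isoform that clusters acetylcholine receptors. They are printed with the Src microexon, in capitals, as the short neuronal exons whose inclusion is given.
Src 18-base exon (chr2:157458843-157458860, plus strand): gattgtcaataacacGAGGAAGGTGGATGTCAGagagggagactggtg
Agrn 24-base exon (chr4:156168546-156168569, minus strand): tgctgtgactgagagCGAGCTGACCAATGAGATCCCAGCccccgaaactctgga
Agrn 33-base exon (chr4:156167777-156167809, minus strand): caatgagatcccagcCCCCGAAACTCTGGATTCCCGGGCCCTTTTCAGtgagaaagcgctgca
The 24-base exon was included at 76.5 and 78.2% and the 33-base exon at 19.4 and 20.2% of 73.7 and 78.7 TPM. Much of this TPM is in Agrn-205, a retained-intron model with the first exon and without the second, at 42.02 and 45.67 TPM. With coding and decay transcripts alone, both exons were at 46.7%, since they then rest on the same model, Agrn-203. An Agrn exon of 12 bases was included at 58.5 and 59.8% of 41.7 and 42.6 TPM. A span of 793 bases that joins the 24-base and 33-base exons through the intron between them was present at 36.8 and 35.9% of 27.4 and 26.8 TPM, in the retained-intron model Agrn-207, which also counts toward the 12-base exon. That TPM leaves out Agrn-203 and Agrn-205, which hold the 24-base exon. Of the whole gene, Agrn-207 held 11.8 and 10.78%. Agrn-207 is in turn left out of the TPM behind the 24-base and 33-base exons, although its span covers both. In Ndrg4, a target of Mbnl2, an exon of 39 bases was included at 10.0 and 7.95%, and in Tanc2, another, an exon of 30 bases at 3.78 and 7.38%. A further Tanc2 exon, of 101 bases, was included at 78.5 and 85.6%. The share of each regulator in these exon values was not tested, since the design holds no sample in which a regulator was altered.

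The label of the tissue was checked against marker genes. All 5 forebrain markers, 5 neuronal and 5 progenitor markers reached 1 TPM in both libraries, with sums of 291.7 and 319.0, 2904 and 2863, and 678.4 and 693.7 TPM. None of the 5 midbrain, hindbrain and spinal cord markers did, and 3 of these were at 0. Of other cell types, markers of mesenchyme (3 of 3), endothelium (3 of 3), blood (3 of 3) and muscle (1 of 5) reached 1 TPM, with sums of 131.8 and 141.7, 98.8 and 106.6, 4541 and 4077, and 4.53 and 7.12 TPM. The muscle marker that reached 1 TPM in both libraries was Actn2 (2.17 and 1.94 TPM). Tnnt2 was higher in replicate 2 (0.62 and 4.75 TPM), and the other muscle markers were higher in replicate 1, such as Myl1 (1.16 and 0.33). The part of these cell types in the levels of genes that are also expressed outside neurons, such as Ptbp1, Ptbp3 and Rbfox2, was not tested.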

How the data were processed

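Gene and transcript tables of 2 total RNA libraries were used. Values derive from transcriptome alignments on mm10 with annotation M4, per the file headers and accompanying notes. Which aligner, quantifier and strand setting produced them is not given in the sources consulted. The authors deposited expected counts, which are read estimates that need not be whole, TPM, which scales them by effective length, and percent values for the share of a gene in each transcript. The bounds of TPM, an interval signal per transcript deposited by the authors, have no stated level. A linked kit manual does not state the priming used.

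Symbols were matched by identifier without version for 42462 of 43346 genes (98.0%). Types, coordinates and exons were read from GENCODE M21 (same assembly). Exons were used only for genes whose models of equal length in tables and M21 held over 95% of TPM, which were 4 of 10 members (Ptbp1, Ptbp2, Ptbp3 and Rbfox3) and 9 of 13 further target genes. Pkm did not meet this and is given by transcript only, with the exon of each transcript read from M21. Log2 ratios used TPM + 0.1. Named were the 10 members, their transcripts at 10% or more in either library, the highest and lowest gene of each fixed list, and exons with a mean inclusion between 5 and 95% on 5 TPM or more; other names were chosen after their values were seen. The values of 1 listed target gene are not reported here. The members and lists were chosen with earlier results of these data known. Alternatives were posterior mean TPM, reads without length correction, coding transcripts only, a pseudocount of 1, 1 library at a time, other filters and thresholds, spike-in scaling, TMM factors of edgeR 4.0.16 and size factors of DESeq2 1.42.0 (R 4.3.3) on expected counts rounded to whole numbers. The call of genes that differ between pools was tested on simulated counts without biological variation, and the inclusion step on an invented gene. Other steps were not tested in this way. Python 3.11.15, numpy 2.4.6, pandas 2.3.3 and matplotlib 3.10.9 were used.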

Additional observations from a re-analysis of the deposited data

How the results depend on the processing

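Without length correction the log2 ratios moved to 1.40 (Ptbp2 over Ptbp1), 1.96 (Ptbp1 over Ptbp3), 2.23 (Rbfox2 over Rbfox1), 0.35 (Rbfox1 over Rbfox3), -1.13 (Mbnl2 over Mbnl1) and, reversed, 2.05 (Srrm4 over Srrm3). This follows from the lengths of the models. With coding transcripts only they were 2.77 (Ptbp1 over Ptbp3), -1.23 (Mbnl2 over Mbnl1), -0.55 (Srrm4 over Srrm3) and, reversed, -0.98 (Nova2 over Nova1), the last because the main Nova2 transcript has no type and drops out. Mbnl2 over Mbnl1 was -1.63 with a pseudocount of 1 and -1.77 with posterior mean TPM. The count of genes that differ between the pools was 165 at a mean of 5 TPM, 5025 with no filter, 532 with a pseudocount of 1 and 386 at 2-fold, against 888; TMM and DESeq2 scaling gave 839 each and spike-in scaling 1009, with the median log2 ratio of all genes at -0.201 against 0.016. None of the 10 regulators was among them under these settings. At a share of 50% outside coding models 733 genes were counted, against 2302. Posterior mean TPM moved 2 of 10 levels by more than their SD, to 17.0 TPM for Ptbp3 and 96.2 for Rbfox2. In either library alone, each of the 7 ratios kept its direction. No paired analysis was possible because there is 1 group. With 2 libraries, differences near the spread between them were not detectable.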
